A study of Homo sapiens with 6 samples.

Results

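RNA polymerase II phosphorylated on serine 2 of its largest subunit RPB1 (pSer2 RPB1) was mapped by ChIP-seq in HepG2 cells with SHP-1 (SHP-1-WT) and without it (SHP-1-KO). The members were all regions of both pSer2 region lists, 102674 in WT and 81012 in KO, together 183686 of the 271336 regions in the 4 lists of the study. The other 2 lists hold total RPB1. By the gene symbol that the lists assign to each region, the members fell on 13303 genes, 12740 in WT and 11433 in KO. HepG2 is a line from a human liver tumor, and the cells were untreated. The KO cells are a CRISPR knockout of SHP-1, the tyrosine phosphatase encoded by PTPN6. Whether the WT cells in ChIP were untransfected or carried a nontargeting guide is not given in the sources used here. The knockout lines were grown from single-cell clones after puromycin selection, and which clone and which guide went into ChIP is not given either. The genotype can therefore not be told apart from the clone. There was 1 library per antibody and genotype, so no difference below has a replicate check, no test was run and no p-value is given. Intervals are 95% Wilson intervals and cover counting error only. The lists hold no read counts, so the depth is unknown, and fewer regions in a list cannot be told apart from a shallower library or a weaker immunoprecipitation.

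The largest subunit of RNA polymerase II ends in a long tail of repeated heptads. Serine 2 of the heptad is phosphorylated by CDK9, in the elongation factor P-TEFb, and by CDK12 and CDK13, after the polymerase has left the promoter. The modified form is therefore a sign of elongating polymerase. It builds up along the gene body and peaks around and past the polyadenylation site, where it helps to recruit factors for RNA processing and termination. Total RPB1, by contrast, is usually highest near the promoter, where the polymerase pauses.

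Each region is a stretch of hg38 that the authors called against the input DNA of the same cells, with a summit and a fold enrichment at the summit. The sequences below are 101 bases of the forward strand of hg38 around the summits of regions that carry the gene results, with the summit base in capitals. The MEGF6 (chr1:3535567-3535667), SPTLC3 (chr20:13170931-13171031), BDH1 (chr3:197534183-197534283) and SNHG14 (chr15:24973180-24973280) windows are WT summits that no KO region overlapped. The IRX3 window (chr16:54280341-54280441) is a KO summit that no WT region overlapped. The GPC3 window (chrX:133937167-133937267) is the summit of the longest WT region, of which 99.3% was covered in KO.
MEGF6: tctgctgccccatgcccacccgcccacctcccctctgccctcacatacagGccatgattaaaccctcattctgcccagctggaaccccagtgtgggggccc
SPTLC3: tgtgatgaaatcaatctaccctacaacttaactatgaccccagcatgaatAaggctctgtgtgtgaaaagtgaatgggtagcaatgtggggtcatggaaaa
BDH1: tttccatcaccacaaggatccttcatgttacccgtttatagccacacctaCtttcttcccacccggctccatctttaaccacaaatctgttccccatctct
SNHG14: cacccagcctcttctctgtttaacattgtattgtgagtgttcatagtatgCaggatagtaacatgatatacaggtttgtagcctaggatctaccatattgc
IRX3: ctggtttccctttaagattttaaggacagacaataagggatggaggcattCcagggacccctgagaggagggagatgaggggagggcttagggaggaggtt
GPC3: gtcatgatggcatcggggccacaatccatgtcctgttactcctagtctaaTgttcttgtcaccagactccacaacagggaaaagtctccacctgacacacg
The GC content of these windows ran from 39.6% at SNHG14 to 64.4% at MEGF6.

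The KO list was shorter than the WT list in every annotation class, and most so at distal intergenic positions and in first introns. The KO to WT ratio of the number of regions was lowest for distal intergenic regions (9259 in WT and 6759 in KO, 0.730) and for regions in first introns (12316 and 9323, 0.757). It was highest for 3′ UTRs (11204 and 9558, 0.853) and promoters (24527 and 20346, 0.830). Other introns (33375 and 25652), exons (8161 and 6324), 5′ UTRs (696 and 534) and downstream regions (3136 and 2516) lay between, at 0.767 to 0.802. As a share of the list, promoters took 23.9% (23.6 to 24.2) of the WT regions and 25.1% (24.8 to 25.4) of the KO regions, and introns 44.5% (44.2 to 44.8) and 43.2% (42.8 to 43.5). These differences of 1.23 and −1.33 percentage points depended on the unequal list sizes. With the WT list reduced to as many regions as KO by −log10 q-value they turned to −0.47 and 1.67 points, and the 3′ UTR difference of 0.886 points fell to 0.227.

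Regions with little enrichment were shared least often between the lists. Of the WT regions in the lowest 5 of 10 equal bins of fold enrichment, 35.5% to 41.7% were overlapped by a KO region, against 77.3% in the ninth bin and 95.8% in the highest. Width gave the same picture, from 30.3% of the regions under 300 bp to 95.5% of those from 1000 bp to under 5000 bp. Introns had the lowest shared part, with 43.0% of the WT regions overlapped (42.5 to 43.4), and 3′ UTRs (64.3%, 63.4 to 65.2) and promoters (62.1%, 61.4 to 62.7) among the highest. The KO regions were overlapped by WT more often in each class, from 59.2% in introns other than the first to 83.9% downstream of genes. The broadest regions held almost without exception. Of the 1219 WT regions over 5 kb, 1218 were overlapped by a KO region, 1206 were covered over more than 50% of their length, and the median cover was 96.8%. The exception was a region of 36825 bp in MEGF6 (chr1:3520670-3557494, fold enrichment 33.5), the fourth longest WT region, where the KO list held nothing. Its annotation class is promoter, but it lies inside the gene interval, away from the gene start at 3611508. MEGF6, which encodes a protein with many EGF-like domains, was singled out after its values were seen.

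Gene by gene, 1870 of the 12740 genes with a WT region had none in KO (14.7%, 14.1 to 15.3) and are called missing here. Conversely, 563 of the 11433 genes with a KO region had none in WT (4.92%, 4.54 to 5.34) and are called appearing. The remaining 10870 genes were holding, with at least 1 region in each list. A region can change its assigned gene without going away. Of the missing genes, 1750 (13.7% of the WT genes) had no region overlapped by KO, and 120 had one that the KO list assigned to another gene. Of the appearing genes, 456 (3.99% of the KO genes) had no region overlapped by WT, and 107 lay on a WT region of another gene. Among holding genes, 748 had no WT region that a KO region overlapped. Without chromosome 1 before 87.8 Mb, called the chromosome 1 segment here, with a boundary taken from RPB1 losses seen earlier in these data, there were 1746 missing (14.5%), 550 appearing and 10333 holding genes.

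Missing genes were mostly genes with a short pSer2 signal in WT. Their median was 1 region, 439.5 bp and a highest fold enrichment of 3.81, against 5 regions, 3429 bp and 5.98 for the holding genes, and 56.8% of them had 1 WT region, against 12.8% of the holding genes. Protein-coding genes made up 72.4% of the missing and 84.7% of the holding genes, miRNA genes 6.58% and 3.55%, and lncRNA genes 14.1% and 8.57%. Among genes with at least 3 regions in a list, 435 of 9211 were missing (4.72%, 4.31 to 5.18) and 49 of 8825 appeared (0.555%). Outside the chromosome 1 segment, with the genes split into 10 equal groups by WT length, 61.3% of the genes in group 1 (200 to 342 bp) were missing, 22.7% in group 3, 4.53% in group 5 and 0.171% in group 10 (12243 bp and more). The share was higher in the segment in each of groups 1 to 7. In groups 2, 4 and 5 of the segment, 30 of 50 (46.2% to 72.4%), 14 of 56 (15.5% to 37.7%) and 16 of 59 genes (17.4% to 39.6%) were missing, against 37.6%, 11.5% and 4.53% elsewhere. Groups 8 and 9 went the other way, with 0 of 74 and 0 of 84 missing, against 0.917% and 1.09% elsewhere. In group 10 the segment had 1 of 104 missing. Neighboring genes of 1 library per side are not replicates, so the intervals are no test of the segment.

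**Figure D1:**
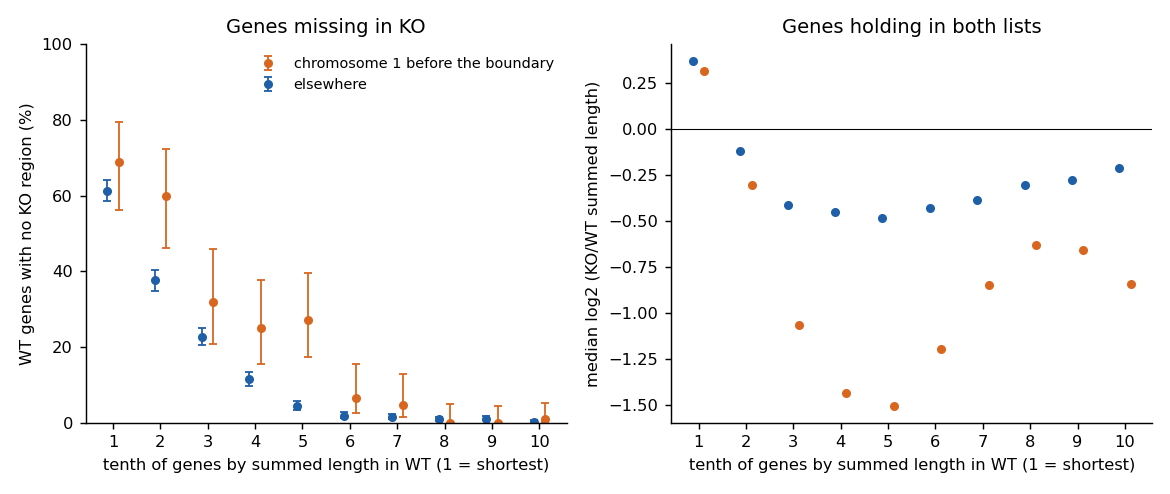
Genes in 10 equal groups by their summed pSer2 length in WT (x axis, 1 the shortest), for chromosome 1 before 87.8 Mb (orange) and elsewhere (blue). Left, the percent of WT genes with no KO region, with 95% Wilson intervals, which drops from 61.3% to 0.171% elsewhere. Right, the median log2 KO/WT ratio of summed length of the genes with regions in both lists, which in the segment is lowest in group 5, at −1.50 against −0.49 elsewhere.

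SPTLC3 lost the longest pSer2 signal of the missing genes. It encodes a subunit of serine palmitoyltransferase, which starts sphingolipid synthesis, and lies on the forward strand of chromosome 20 (13008972 to 13169103). WT held 65 SPTLC3 regions with 26129 bp in sum and a highest fold enrichment of 5.14, longer than 97.8% of the WT genes, and KO held 0. Its RPB1 regions numbered 2 in WT and 1 in KO, so the gene had few called RPB1 regions in either cell. The WT regions were short, up to 2450 bp, and spread along the gene and past its end. The next gene without overlap, LOC100506474 on chromosome 2, had 21 regions and 19287 bp in WT. PSD4, which encodes an exchange factor for the small GTPase ARF6, had 17 regions and 9451 bp in WT, and its RPB1 regions went from 10 to 3. PDGFB, a growth factor chain, had 11 regions and 9403 bp, with 8 RPB1 regions in WT and 5 in KO. SERPINA12, which encodes the adipokine vaspin, had 8 regions and 8708 bp, with 4 RPB1 regions in WT and 1 in KO. These genes had no pSer2 region of any symbol in KO where WT had them.

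Further genes in the list of the longest missing genes were missing by name only. MIR6864 (12180 bp in WT), SNORD72 (10441 bp), MYL6B (9741 bp), TM4SF1 (9301 bp) and, once the chromosome 1 segment was left out, MIR6853 (8479 bp) each lay on DNA that the KO list gave to a neighbor. MYL6B, a myosin light chain gene, overlaps MYL6, and the same DNA returned as 7716 bp of MYL6 among the appearing genes. MIR551A was different. Its 11 WT regions (14039 bp, highest fold enrichment 7.90) lie in the MEGF6 locus on the first part of chromosome 1, and its RPB1 regions went from 28 to 0. MEGF6 itself (chromosome 1 from 3487951 to 3611508, reverse strand) counted as holding, with 24 regions and 60375 bp in WT and 1 distal region of 361 bp in KO. No MEGF6 region of WT was overlapped by KO, and those 361 bp lay inside a WT region assigned to another gene, ARHGEF16.

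To set aside the assigned names, the bases covered by any pSer2 region were counted inside each protein-coding gene of GENCODE release 44. This count was added after the values were seen. Of 10778 genes covered in WT, 1296 had no covered base in KO (12.0%, 11.4 to 12.7), with a median of 369.5 bp in WT, and of 9841 covered in KO, 359 had none in WT (3.65%). A complete loss of a long signal was rare. Of the 3343 genes with at least 5 kb covered in WT, 15 (0.449%) had none in KO, and 4 of these lay in the chromosome 1 segment. The longest was MEGF6, with 72329 bp of pSer2 and 45523 bp of RPB1 regions in WT and 0 of each in KO. SPTLC3 followed with 21817 bp, then SORCS2, a sortilin family receptor gene (14666 bp), AHDC1, which encodes an AT-hook protein (12899 bp), SERPINA12 (12111 bp) and ITIH3, an inter-alpha-trypsin inhibitor heavy chain gene (9498 bp). RPB1 was also lost completely in 78 of the 1170 genes with no pSer2 in KO and RPB1 in WT (6.67%), against 108 of the 9196 with pSer2 in both lists (1.17%).

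Genes that appeared in KO had shorter signals. Of the 10 with the longest KO signal, 9 lay on a WT region of another gene, among them MYL6, CHRNB2, MSH4, AMIGO3, 3 snoRNA genes and 2 miRNA genes. CHRNB2, a nicotinic receptor gene, thus took a region of 6326 bp that WT assigned to its neighbor ADAR. The exception was IRX3, which encodes an Iroquois homeobox transcription factor, with 0 regions in WT and 9 regions, 6265 bp and a highest fold enrichment of 7.15 in KO. Its RPB1 regions numbered 3 in WT and 7 in KO. Most of the IRX3 signal lay outside the gene (chromosome 16 from 54283304 to 54286787, reverse strand), with 859 bp inside it. Among the further appearing genes without a WT overlap, named after their values were seen, the amino acid transporter gene SLC6A14 had 16 regions and 4981 bp, COL5A1, a collagen chain gene, 6 and 3767 bp, and the nuclear receptor gene NR5A2 7 and 3109 bp. Inside genes, SPP1, which encodes osteopontin, had the longest cover found in KO alone, with 7034 bp, while its RPB1 cover went from 244 to 3954 bp.

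Most holding genes had a shorter pSer2 signal in KO. Summed length was shorter in KO for 7911 of 10870, longer for 2951 and equal for 8, with a median log2 ratio of −0.32, a KO to WT ratio of 0.800. The ratio was under 1/2 for 2350 genes (21.6%) and over 2 for 453 (4.17%). Counted from the median gene instead, 1635 genes (15.04%) lay more than 2-fold below it and 751 (6.91%) above it, a smaller asymmetry. The order of the genes was largely kept, with a Spearman correlation of 0.87 across the 10870 genes for summed length and 0.73 for highest fold enrichment. The genes are not independent replicates, and both values depend on how long a gene is.

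**Figure D2:**
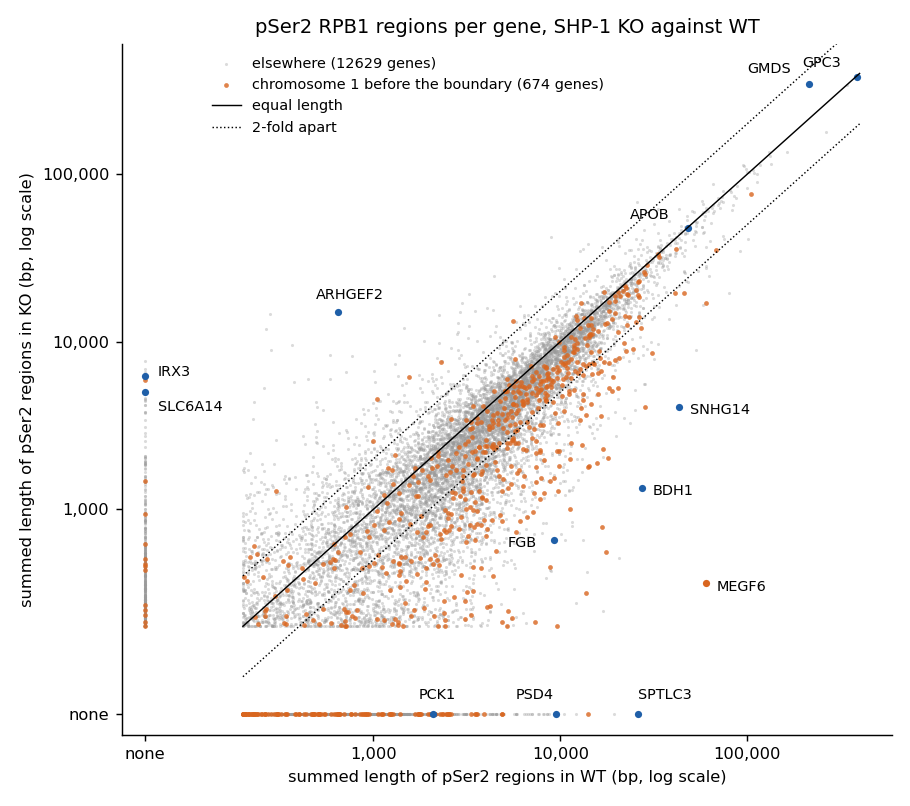
Summed length of the pSer2 regions of each gene in KO (y axis, bp, log scale) against WT (x axis, bp, log scale), with genes that have no region in a list drawn at none. Of the 10870 genes with regions in both lists, 7911 lie under the line of equal length, the chromosome 1 segment (orange) lies lower, and the named genes (blue, with MEGF6 in orange) lie at the edges, such as BDH1 at 27325 bp in WT and 1344 bp in KO.

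The lowest ratios among genes with at least 2 regions in each list belonged to genes with many WT regions. BDH1 encodes the mitochondrial 3-hydroxybutyrate dehydrogenase, which interconverts the ketone bodies, and lies on the reverse strand of chromosome 3 (197509783 to 197573323). It had 40 regions, 27325 bp and a highest fold enrichment of 10.7 in WT and 5 regions, 1344 bp and 3.93 in KO. Its place among the genes of its list went from the percentile 98.0 to 36.4 by length, and its RPB1 regions from 19 to 7. MASP1, a serine protease gene of the lectin pathway of complement, went from 21 regions and 13168 bp to 2 regions and 656 bp, and its RPB1 regions from 6 to 1. LGALS3, which encodes galectin-3, went from 17 regions and 10584 bp to 2 regions and 654 bp. The divergent transcript MAP4K3-DT went from 41 regions and 13866 bp to 2 regions and 423 bp, and the readthrough gene ERV3-1-ZNF117 from 14 regions and 8907 bp to 2 regions and 429 bp. AHDC1, in the chromosome 1 segment, went from 26 regions and 16627 bp to 2 regions and 784 bp that lay outside the gene. In each of these genes except ERV3-1-ZNF117, with 2 RPB1 regions in each list, the number of RPB1 regions was lower in KO as well.

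The highest ratios were led by ARHGEF2, which encodes a microtubule-associated guanine nucleotide exchange factor. It had 3 regions and 643 bp in WT and 34 regions and 15151 bp in KO, from the percentile 19.1 to 94.3, and its RPB1 regions went from 4 to 12. Inside the gene (chromosome 1 from 155946851 to 156007070, reverse strand) the cover was 3335 bp in WT and 20294 bp in KO. The microRNA gene MIR1269A had 2 regions in WT and 15 in KO (583 and 5953 bp), with 1 RPB1 region in each. KLHDC7B had 501 bp in WT and 4061 bp in KO. GBA2 (587 and 8350 bp) and RNF167 (446 and 5964 bp) owed their ratio to the assigned names, since their covered bases were 5096 and 4545 bp for GBA2 and 3195 and 4309 bp for RNF167. By cover inside the gene, and named after the values were seen, MTHFD1L, a mitochondrial folate enzyme gene, went from 6943 to 37906 bp and SLC22A15, a solute carrier gene, from 368 to 8792 bp.

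Of the 5 holding genes with the longest signal, 4 stayed within 2-fold below their WT length. GPC3, which encodes glypican-3, a cell surface proteoglycan widely used as a marker of liver cancer, had 385213 bp in WT and 378619 bp in KO and ranked at the top of both lists. FNDC3B had 342929 and 339199 bp, EHBP1, an endocytosis gene, 162561 and 134987 bp, and RELN, which encodes reelin, 265092 and 178852 bp. GMDS went the other way. This gene for GDP-mannose 4,6-dehydratase, an enzyme of fucose synthesis, had 502 regions and 213790 bp in WT and 563 regions and 346136 bp in KO, and it was second by length in KO. Its log2 ratio of 0.70 was 1.26 with −log10 q of at least 5.

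Chromosome 1 before 87.8 Mb stood apart from the rest of the genome in pSer2 RPB1. It held 6199 regions in WT and 3716 in KO, a ratio of 0.599, against 0.800 on the rest of chromosome 1 and 0.707 to 0.869 on the other chromosomes. The RPB1 ratio was 0.759 there, 0.940 on the rest of chromosome 1 and lowest otherwise on chromosome 19, at 0.817. The boundary was taken from RPB1 losses in these data, so the low RPB1 ratio is no independent support for the segment. Genes in the segment, as elsewhere, were more often shortened to under 1/2 than missing. Of 661 WT genes, 124 were missing (18.8%, 15.97 to 21.9), against 103 of 658 on the rest of chromosome 1 (15.7%, 13.1 to 18.6) and 14.4% on the other chromosomes. Of 537 holding genes, 235 had a ratio under 1/2 (43.8%) and 9 a ratio over 2, against 20.5% of 10333 elsewhere, and the median log2 ratio was −0.84 against −0.30. Among genes with at least 3 regions in a list, 44 of 490 were missing in the segment (8.98%, 6.76 to 11.8) and 391 of 8721 elsewhere (4.48%, 4.07 to 4.94). Inside protein-coding genes, the median log2 ratio was −0.85 in the segment and −0.26 elsewhere.

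The lower ratio ran through the whole segment. Its 8 full stretches of 10 Mb with at least 100 WT regions had ratios from 0.376 to 0.711, while the 256 such stretches elsewhere ran from 0.361 to 1.38 with a median of 0.801, and 40 of them lay under 0.7. Around the boundary the change was not sharp in the genes. The last 10 Mb before it had a ratio of regions of 0.640 and the first 10 Mb after it 0.815, but the holding genes had a median log2 ratio of −0.67 (19 genes) and −0.69 (33 genes). Genes of the segment, named after their values were seen, included PRKCZ, an atypical protein kinase C gene, with 38 regions in WT and 7 in KO (15628 and 1896 bp), HSPG2, which encodes perlecan, with 35 and 6 (14256 and 1817 bp), and SPSB1, with 9 and 0. The input DNA was not analysed here, so the amount of DNA of the segment in each clone was not measured.

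**Figure D3:**
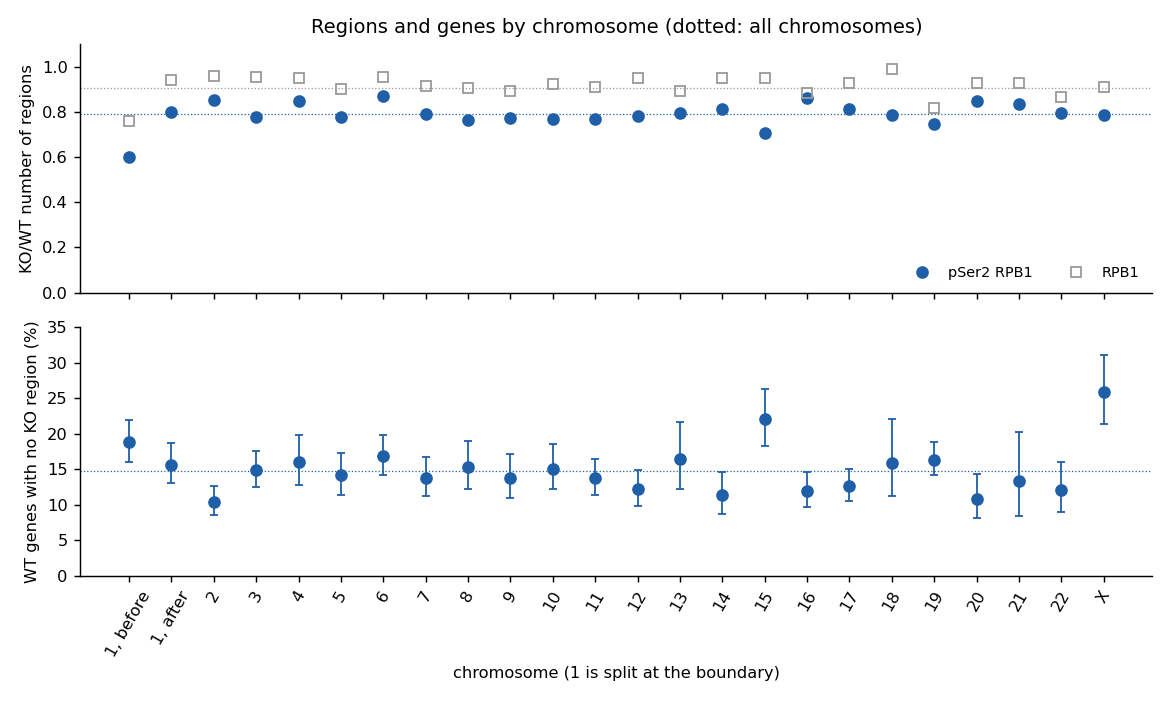
Top, the KO/WT ratio of the number of pSer2 (filled circles) and RPB1 (open squares) regions on each chromosome (x axis), with chromosome 1 split at 87.8 Mb and dotted lines at the ratio over all chromosomes. Bottom, the percent of WT genes with no KO pSer2 region, with 95% Wilson intervals. The segment before the boundary has the lowest ratios of both antibodies, 0.599 and 0.759, and chromosomes 15 and X have the highest percent of missing genes, 22.03% and 25.9%. The boundary was taken from RPB1 losses in these data, so the low RPB1 ratio is not independent of it.

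Further stretches with few KO regions held 1 or 2 long genes, which were named after their values were seen. On chromosome 15 from 20 to 30 Mb, WT had 263 regions and KO 95. SNHG14 lies here, the long imprinted host transcript of the SNORD115 and SNORD116 snoRNA clusters, with 69 regions and 43126 bp in WT and 12 regions and 4065 bp in KO. Its gene interval held 111062 covered bases in WT and 21651 in KO. SNORD116 genes with a region numbered 24 in WT and 0 in KO. This stretch held 32 of the 91 missing genes of chromosome 15, of which 28 were snoRNA genes, and without it 59 of 369 genes were missing (15.99%), close to the 14.7% over all genes. On chromosome 12 from 20 to 30 Mb (547 and 239 regions), the transcription factor gene SOX5 went from 221 to 56 regions and from 79588 to 19544 bp, and ITPR2, which encodes an inositol trisphosphate receptor, from 257 to 106 regions and from 101283 to 40875 bp. On chromosome 14 from 80 to 90 Mb, the forkhead factor gene FOXN3 went from 145 to 50 regions and from 57901 to 16528 bp. Their RPB1 regions differed less, with 7 in WT and 6 in KO for SOX5 and for FOXN3 and 8 and 4 for ITPR2.

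The X chromosome had the highest percent of missing genes, 80 of 309 (25.9%, 21.3 to 31.0), while its ratio of regions was 0.786. Its genes had less signal to begin with, since the median summed length in WT was 1547 bp against 2754 bp elsewhere, and 28.5% against 19.0% of its genes had 1 region. Among X genes with at least 3 regions, 10 of 171 were missing (5.85%). WDR13 (13 regions in WT and 0 in KO) and PAGE1 (12 and 0), both named after their values were seen, lie within the same 10 Mb.

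The pSer2 signal rose along genes in both cells. Over 7649 protein-coding genes of at least 10 kb with cover in both lists, each divided into 10 equal bins, 13.5% of the bases of the first bin, 11.1% of the second and 33.8% of the last lay in a WT region, and 43.9% of the 3 kb after the gene. In KO these shares were 11.4%, 8.85%, 29.2% and 38.4%. The KO to WT ratio of cover ran from 0.796 in the second bin to 0.863 in the last bin and 0.874 in the 3 kb after the gene. The number of regions did not show this order. By region midpoints along assigned genes of at least 10 kb, its ratio was 0.801 in the first bin. It was 0.754 in the last bin and 0.795 in the 3 kb after. Without the length limit these ratios were 0.819, 0.822 and 0.830. RPB1 was highest at the start and rose again toward the end. In WT it covered 30.0% of the first bin, 5.87% of the sixth, 11.6% of the last and 15.3% of the 3 kb after. In the chromosome 1 segment (358 genes), the ratio of pSer2 cover was lower at every position, from 0.554 in the sixth bin to 0.761 in the 3 kb after the gene.

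**Figure D4:**
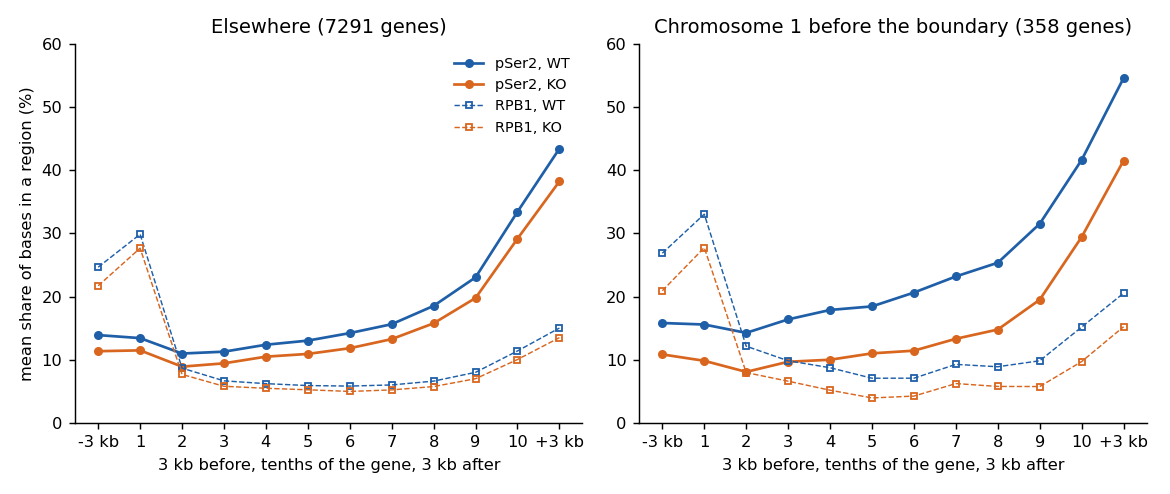
Mean percent of bases in a region (y axis) over the 3 kb before a gene, the 10 bins of the gene and the 3 kb after it (x axis), for 7291 genes elsewhere and 358 genes of chromosome 1 before 87.8 Mb, each of at least 10 kb. The pSer2 lines (filled circles) climb to the 3 kb after the gene, to 43.4% in WT and 38.2% in KO elsewhere, and the RPB1 lines (open squares) peak in the first bin.

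The total RPB1 lists, which played no part in choosing the genes, differed in the same direction as pSer2. A promoter RPB1 region was present in WT at 61.8% of the missing genes (59.6 to 64.0) and 79.0% of the holding genes (78.2 to 79.7), and in KO at 56.7% and 78.5%. Neither list had an RPB1 region at 26.4% of the missing and 9.57% of the holding genes. Where RPB1 was found in both lists, the median log2 ratio of its summed length was −0.40 at the missing genes, −0.18 at the holding genes and −0.08 at the appearing genes. It also followed the pSer2 ratio across the holding genes, from −0.49 at 581 genes with a pSer2 ratio under 1/4 to −0.37, −0.20, −0.02 and 0.00 in the classes up to a ratio over 2. The antibodies were used on the same cells and set against the same input DNA, so this is a description. Of the WT pSer2 regions shared with KO, 33.1% lay on a WT RPB1 region, against 14.5% of those not shared, and 10.2% of the latter lay on a KO RPB1 region. At promoters the shares were 62.9%, 38.9% and 32.6%.

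The named factors of the mechanism and of the study had modest signals. PTPN6 had 1 region in each list, with 569 bp and a fold enrichment of 4.03 in WT and 463 bp and 5.24 in KO, which says nothing of the SHP-1 protein. POLR2A, the gene of RPB1 itself, had 23 regions and 11840 bp in WT and 12 regions and 7102 bp in KO. STAT5A had 1381 and 1074 bp, and STAT5B 1773 and 586 bp. Both values depended on the processing. At equal list sizes the log2 ratio of STAT5A went from −0.36 to 0.0013 and that of STAT5B from −1.60 to −0.80, and with −log10 q of at least 5 the STAT5B ratio was −0.65, no longer under 1/2. Of 31 genes for Ser2 kinases, phosphatases and elongation factors, 29 had cover inside the gene in both cells, with a median log2 ratio of −0.32 against −0.28 over all 9482 such genes. Of the 29, 24 were shorter in KO, where 71.7% of all such genes were shorter, and 6 had a ratio under 1/2, against 20.0% of all. CDK9 went from 1101 to 460 bp and the super elongation complex scaffold gene AFF4 from 16771 to 7548 bp. The cyclin gene CCNT1, whose product pairs with CDK9, went from 4048 to 5745 bp, and CDK12 from 36367 to 31311 bp. ELL was the only member of this list with cover in WT (1032 bp) and none in KO, with 11 RPB1 regions in WT and 9 in KO.

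Among genes of gluconeogenesis and its regulators, 11 had cover in both lists, with a median log2 ratio of −0.27. PCK1, whose product makes phosphoenolpyruvate from oxaloacetate, had 2074 bp in WT, at the percentile 42.5 of the WT genes, and 0 in KO, and its RPB1 regions went from 6 to 0. PC, which encodes pyruvate carboxylase, went from 8589 to 3656 bp. FOXO1, a transcription factor that drives gluconeogenic genes, went from 1255 to 2503 bp. PCK2, the mitochondrial isoenzyme, had 14711 and 14257 bp, although by assigned name its regions went from 10901 to 1725 bp. Tyrosine aminotransferase (TAT) had none in WT and 284 bp in KO. By cover inside the gene, 7 of the 11 were shorter and 4 longer, and their median lay near the −0.28 of all genes. PC and FBP2 were the 2 with a ratio under 1/2, against 20.0% of all genes. By assigned name the split was less even, with 9 of 10 holding members shorter and 1 longer. There the median log2 ratio was −0.43 against −0.32 over all holding genes. A ratio under 1/2 was found for 4 of the 10, against 21.6% of all.

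Plasma protein genes of the liver mostly kept their covered length, with exceptions. Of 30 genes, 24 had cover in both lists, and their median log2 ratio was −0.04, against −0.28 over all genes. In KO, 16 of the 24 were shorter and 5 longer, against 71.7% and 27.2% of all genes. ALB, which encodes albumin, had 17348 and 17327 bp, APOB 42645 and 42645 bp, and the transferrin gene TF 38114 and 35784 bp. Covered length does not show the height of a signal. The highest fold enrichment by assigned name was lower in KO at most members, such as APOB (26.0 and 20.9) and SERPINA1 (28.7 and 18.9). It was higher at a minority, such as ALB (15.1 and 18.6) and RBP4 (23.8 and 32.3). Fold enrichments of 2 libraries of unknown depth are not on 1 scale. The fibrinogen genes, which lie side by side on chromosome 4, did not move together. FGA had 10035 bp by assigned name in WT and 9069 bp in KO and FGG 11636 and 10865 bp, while FGB went from 9 regions and 9296 bp to 1 region and 659 bp. The transthyretin gene TTR (7084 and 3498 bp) and the ceruloplasmin gene CP (12260 and 3278 bp) were also under 1/2. That made 3 of the 24, against 20.0% of all genes. ITIH3 and PLG had no cover in KO, 2 of the 26 covered in WT, against 12.0% over all genes.

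Cholesterol synthesis genes were mostly shorter in KO, as were genes over all. Of 20 with cover in both lists, 19 were shorter, against 71.7% of all genes, with a median log2 ratio of −0.45 against −0.28. A ratio under 1/2 was found for 5 of the 20, near the 20.0% of all genes (1899 of 9482). LSS, the gene of lanosterol synthase, went from 19210 to 5073 bp, and SQLE, the gene of squalene epoxidase, from 11129 to 5385 bp. SREBF2, the gene of the factor that drives the pathway, went from 33945 to 25706 bp. Of the 24 genes of the list, 2 lie in the chromosome 1 segment. The summed RPB1 cover of this list was 113 kb in WT and 70.97 kb in KO.

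Ribosomal protein genes had a median log2 ratio of 0.06. All 47 had cover in both lists, and 31 were longer and 14 shorter in KO, against 27.2% longer and 71.7% shorter over all genes. Few passed 2-fold, with 1 ratio under 1/2 (RPS15) and 1 over 2 (RPS27), against 20.0% and 3.34% of all genes. By assigned name the split was nearer even, with 23 longer and 18 shorter. RPL3 had 6965 and 7448 bp and RPS24 11877 and 11786 bp. By assigned name RPL3 was missing and RPLP0 appeared, both through a change of the assigned gene.

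Liver transcription factor genes had a median log2 ratio of −0.39 over 13 genes with cover in both. PROX1 (54857 and 52163 bp) and NR1H4 (62759 and 59722 bp) held, and HNF4A went from 53859 to 39783 bp. ONECUT1 (6882 and 1745 bp), ONECUT2 and PPARA (8584 and 1925 bp) were under 1/2, 3 of 13 against 20.0% of all genes. NR1I2 and CREB3L3 had cover in WT alone, 2 of the 15 covered in WT, against 12.0% over all genes. NR5A2 had cover in KO alone. The STAT5 targets (7 genes, −0.01), immediate early genes (16, −0.27), cell division genes (16, −0.17) and tyrosine phosphatase genes (10, −0.32) had medians on either side of the −0.28 of all genes. EGR2 and NR4A1 had no cover in KO, 2 of the 18 immediate early genes covered in WT, against 12.0% over all genes. MYC had 7315 bp in WT and 7454 bp in KO.

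**Figure D5:**
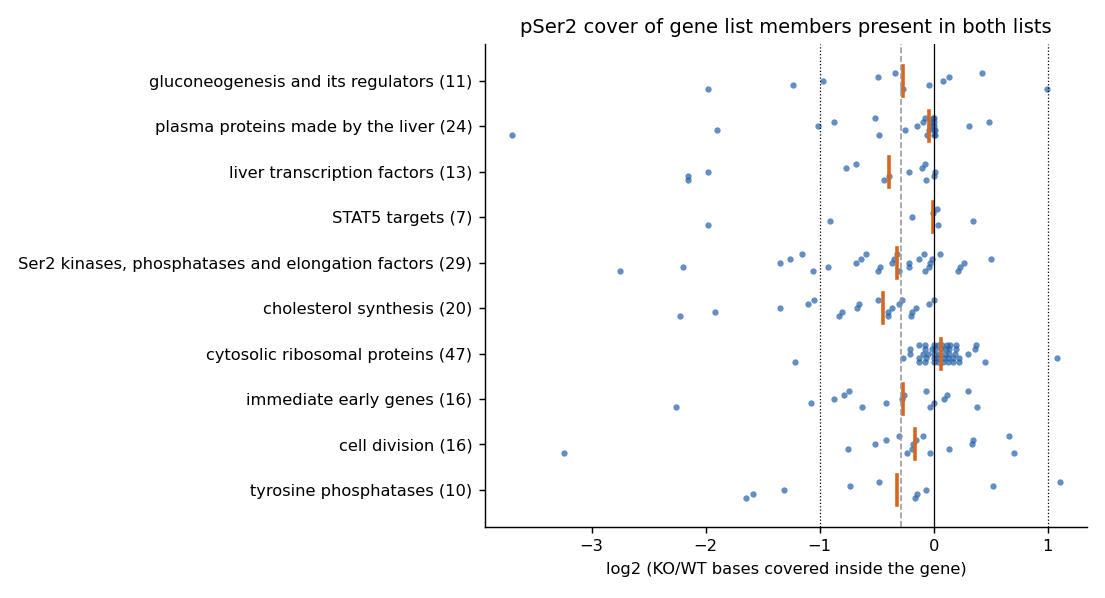
Log2 KO/WT ratio of the bases covered by pSer2 regions inside each gene (x axis) for members of 10 gene lists with cover in both lists, with the number of genes in brackets. Orange bars are list medians, the dashed line is the median of all 9482 genes (−0.28), and dotted lines mark 2-fold. The 47 ribosomal protein genes center at 0.06, the 20 cholesterol synthesis genes at −0.45.

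Liver markers were present in the libraries as the label says. All 11 had a region in WT, from 214 bp at FOXA2 to 47997 bp at APOB, and 10 had one in KO. FOXA2 had no assigned region in KO, with 1935 bp in WT and 1206 bp in KO covered inside the gene. Of the markers of other cells, 0 of 6 for blood, 0 of 4 for kidney and neural genes, 1 of 5 for mesenchyme (PDGFRB, 301 bp in KO) and 1 of 4 for endothelium (PECAM1, 17297 bp in WT and 8263 bp in KO) had a region. Inside the PDGFRB gene, 452 bp were covered in WT and 301 bp in KO. PTPRC, COL1A1 and CDH5 had none in either list.

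The bases around the summits differed slightly between regions found in both lists and in 1 list. In windows reaching 100 bp to each side of the summit, the median GC content was 45.3% for WT regions overlapped by KO, 43.3% for WT regions that were not, and 41.3% for KO regions without a WT overlap. At promoters the medians were 53.7%, 50.7% and 47.8%. In introns other than the first, WT regions with and without a KO overlap had the same median, 41.3%, and KO regions without a WT overlap had 39.8%.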

How the data were processed

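ChIP-seq was analysed from the region lists of the 2 pSer2 RPB1 libraries, with the 2 total RPB1 lists for comparison. No input library was analysed here. Reads were trimmed by the authors (Trimmomatic) and aligned (BWA, hg38), narrow peaks were called per library (MACS2) with the matching input as control, and each region was annotated with its feature and nearest gene. Versions are not given in the sources used here. The deposited lists give each summit's fold enrichment over input, a ratio, and the −log10 of the q-value (at least 1.31 in each list). Both were used mainly to rank within a list. As alternatives, the highest fold enrichment per gene was also compared as a KO to WT ratio, and the same −log10 q limit was applied to both lists. Those alternatives set values of 2 libraries on 1 scale, although the depth is unknown. A further deposited table holds the authors' own csaw comparison of RPB1 (windows up and down, p-values), which was not used.

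For each assigned gene symbol, the number of regions, their summed length and the highest fold enrichment were computed in each list and ranked within it. A gene was missing with a region in WT alone, appearing with one in KO alone and holding with both. Called means past 2-fold. Overlap means at least 1 bp. The lists assign a region to 1 gene, and 35.9% of the WT region midpoints lay farther than 3 kb from the assigned transcript, so cover inside GENCODE release 44 genes was added after the values were seen. The members, the boundary at 87.8 Mb and the gene lists were chosen with earlier results of these data known, so none of their results is independent support for them. Named on chromosomes 1 to 22 and X were the 10 missing and 10 appearing genes with the longest signal, the 5 lowest and 5 highest ratios among genes with at least 2 regions in each list and at least 2000 bp in the longer, the 5 longest holding genes, the same without chromosome 1 before the boundary, list members, PTPN6, PCK1, POLR2A, STAT5A and STAT5B. Other genes are marked as named after their values were seen. With 1 library per group there was no test. The counting functions were tested on simulated data. Alternatives were a −log10 q-value of at least 5, equal list sizes, a reciprocal overlap of 50%, regions in promoters, UTRs, exons and introns only, a 3-fold limit, other measures per gene, and leaving out the chromosome 1 segment. Python 3.11.15, pandas 2.3.3, NumPy 2.4.6, SciPy 1.17.1, matplotlib 3.10.9 and pysam 0.24.0 were used.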

Additional observations from a re-analysis of the deposited data

How the results depend on the processing

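Of 113 recomputed main values, 74 stayed within counting error or within 1.5 times, 37 moved and 2 changed sign. Both sign changes came with the WT list reduced to as many regions as KO, where the promoter share in KO minus WT went from 1.23 to −0.47 percentage points and the intron share from −1.33 to 1.67, and the 3′ UTR difference moved to 0.227. In the same setting the overlapped parts of the WT regions were 58.2% over all, 67.2% at promoters, 48.7% in introns, 69.9% in 3′ UTRs and 56.5% at distal positions, the median log2 ratio of the holding genes was −0.18 (−0.68 in the chromosome 1 segment), and 681 genes were over the fold limit. Keeping regions with −log10 q of 5 or more, 54.0% of those in WT were overlapped (63.7% at promoters, 41.2% in introns, 66.4% in 3′ UTRs), the median log2 ratio was −0.27, and a promoter RPB1 region was found in WT at 67.2% of the missing and 81.6% of the holding genes. Without the segment, 53.0% of the WT regions and 43.9% of those in introns were overlapped and the median was −0.30. With promoter, UTR, exon and intron regions only, the median was −0.29 and the RPB1 promoter shares were 65.9% and 80.7%. A reciprocal overlap of 50% left 26.0% over all, 35.8% at promoters, 18.9% in introns, 31.6% in 3′ UTRs and 26.1% at distal positions. Where a gene held only through overlapped regions, 1155 genes appeared. With a 3-fold limit 1186 genes were under and 182 over it. The median was −0.22 for the number of regions and −0.095 for the highest fold enrichment, with 250 genes under and 116 over the limit for the latter. Centered on the median gene, an alternative chosen after seeing the data like the next, 751 genes lay over it. Inside GENCODE genes 359 genes appeared and the median was −0.28. Of 55 values of single genes that still had regions in both lists, 51 stayed, 3 moved and STAT5A changed sign. STAT5A went from −0.36 to 0.0013 on the log2 scale at equal list sizes. Genes that lost their ratio are not among the 55. With −log10 q of at least 5, MASP1, MAP4K3-DT, ARHGEF2, STAT5A and MEGF6 no longer had regions in both lists. With promoter, UTR, exon and intron regions only, the same held for AHDC1, FGB and MEGF6. The causes were not tested.

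No paired analysis was possible because each antibody and genotype has 1 library, and for the same reason no library was left out. The unknown depth limits every count of regions. A gene without a region is one with no region past the threshold of the peak calling, not one without signal, and 56.8% of the missing genes had 1 region in WT. The annotation gives each region to 1 gene, also where genes overlap.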
